A study of Mus musculus with 3 samples.

Results

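The SRC-family kinases and their inhibitory kinase were followed in NSC-34 cells that had become resistant to PR20. These mouse cells come from a fusion of neuroblastoma cells with embryonic spinal cord rich in motor neurons. The PR20 peptide repeats proline-arginine, which cells with the C9ORF72 expansion of amyotrophic lateral sclerosis make by translating the repeat. Polyadenylated RNA was sequenced in 2 libraries of clones whose genotype is given as WT, spontaneously resistant to PR20, and which were kept in 10 µM PR20 for 3 weeks, and in 1 library of WT NSC-34 cells without treatment. All cells were of the NSC-34 line, grown on gelatin in high-glucose medium with serum. Each resistant library stands for 1 clone, and the labels do not say whether the untreated cells were a clone. The PR20 exposure and the selection of a clone cannot be told apart in this design. The 8 genes described, of 22976 listed, were found by symbol: Frk, Src, Fyn, Yes1, Lyn, Lck and Fgr, which encode SRC-family or closely related kinases, and Csk. The set was chosen by these names with Frk selected on its measured fold change between clones and control in the same libraries. The differences of the 8 genes between clones and control are therefore given as a description, without p-values.

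SRC-family kinases are non-receptor tyrosine kinases that sit on the inner face of the plasma membrane, held there by a fatty acid, and pass on signals from integrins, growth factor receptors and immune receptors. They share SH3, SH2 and kinase domains. CSK phosphorylates a tyrosine in their C-terminal tail, which folds the kinase into a closed, inactive form, and phosphatases that remove this phosphate open it again. SRC, FYN and YES are made in most tissues, and FYN and SRC are abundant in neurons, where they act in axon guidance and glutamate receptor signalling. LYN, LCK and FGR are known mainly from blood cells, LCK above all from T cells. FRK belongs to a branch of the family known mainly from epithelial cells.

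The bases before the transcription start are shown for 3 members. These are Frk, which was low in the control, Fyn, an abundant member on the same chromosome, and Lck, which RefSeq gives more than 1 start. The part of these bases in the read counts was not tested. The sequences are the 250 bases before each RefSeq start on GRCm38.p6, written 5′ to 3′ on the gene's strand. Capitals mark matches, on either strand, to the GC box GGGCGG, the TATA box TATAAA, the ETS core GGAAGT or the CCAAT box.
Frk, chr10:34483150-34483399, plus strand: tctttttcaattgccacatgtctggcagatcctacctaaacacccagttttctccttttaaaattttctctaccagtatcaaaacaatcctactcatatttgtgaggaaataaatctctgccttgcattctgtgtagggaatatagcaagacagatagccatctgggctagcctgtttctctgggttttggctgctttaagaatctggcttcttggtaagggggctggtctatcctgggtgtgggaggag
Fyn, chr10:39369549-39369798, plus strand: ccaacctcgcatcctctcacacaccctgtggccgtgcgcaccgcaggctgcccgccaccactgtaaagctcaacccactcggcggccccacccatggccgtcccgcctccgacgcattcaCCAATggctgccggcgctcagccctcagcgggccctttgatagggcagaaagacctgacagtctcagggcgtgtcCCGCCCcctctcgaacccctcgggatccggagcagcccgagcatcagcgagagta
Lck, upstream start, chr4:129573642-129573891, minus strand: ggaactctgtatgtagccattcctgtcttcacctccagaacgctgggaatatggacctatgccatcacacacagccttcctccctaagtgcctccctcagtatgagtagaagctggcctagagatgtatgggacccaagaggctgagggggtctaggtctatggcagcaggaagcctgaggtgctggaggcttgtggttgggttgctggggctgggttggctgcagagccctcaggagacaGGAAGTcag
Lck, downstream start, chr4:129558373-129558622, minus strand: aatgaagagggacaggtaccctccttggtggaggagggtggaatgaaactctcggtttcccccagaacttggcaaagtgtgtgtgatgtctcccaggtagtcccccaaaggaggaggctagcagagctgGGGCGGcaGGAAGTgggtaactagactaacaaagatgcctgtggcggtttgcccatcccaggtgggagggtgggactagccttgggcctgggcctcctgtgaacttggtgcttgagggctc

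The Frk window held 0 CpG dinucleotides and 43.2% G and C, and none of the 4 motifs. The Fyn window held 21 CpG and 67.2% G and C, the Src window 40 CpG and 82.8%, and the Yes1 window 37 CpG and 77.2%. The Lck windows held 1 CpG at the upstream start and 3 at the downstream start. Over all 32851 RefSeq windows the median was 6 CpG and 52.4% G and C, and 7.87% of windows held no CpG. The Fgr window held 9 CpG and 64.4% G and C, and the Csk windows held 16 and 7 CpG. So the windows of Fyn, Src and Yes1 held the most CpG, those of Frk and Lck the fewest, and those of Fgr and Csk lay between. Of all windows 32.7% held the GC box, 12.4% the TATA box, 19.7% the ETS core and 33.8% the CCAAT box. The Fyn window held a GC box and a CCAAT box, both Lck windows an ETS core, and the downstream one also a GC box. The Src window held 1 GC box, the Yes1 window 2, and the Fgr window an ETS core. The Csk windows held none of the 4 motifs. Windows matched 7 of the 8 members by symbol, and Lyn was not among them. The counts are totals per gene, so reads from the 2 starts of Lck were not separated.

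Depth was similar in all libraries, with 11389663 and 11307034 gene counts in the clones and 11700755 in the control. Levels are given as CPM, counts scaled to a common library total with TMM factors, which correct for differences in RNA composition. A count of 3 corresponds to 0.267 and 0.270 CPM in the clones and 0.250 CPM in the control. The labels name the clones but no separate cultures. The p-values rest on the spread between the clone libraries, and how much of it is technical is not known. The control has no replicate, so the p-values hold no spread of untreated cultures. Of the markers of the 2 parent lineages, the noradrenergic neuroblastoma list summed to 831 and 752 CPM in the clones against 1260 CPM in the control, with 6 of 7 genes lower by edgeR's test. The motor neuron list summed to 5.79 and 4.85 CPM against 23.2 CPM, with 3 of 3 tested genes lower. Of these, Slc18a3 had 3 and 1 reads in the clones and 113 in the control. Isl1 had 23 and 17 reads against 72, and Isl2 had 38 and 33 against 85. Of the list's defining markers that were not tested, Chat had no read in either clone and 7 reads in the control. Lhx3 had no read in the clones and 1 in the control, and Mnx1 had 1 and 3 reads in the clones and 1 in the control. Their part in the differences below was not tested, and in such bulk libraries fewer cells of a type and less RNA per cell cannot be told apart.

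Frk (ENSMUSG00000019779.15; GRCm38 chromosome 10, 34483399 to 34611278, plus strand) encodes FYN-related kinase. It had 105 reads in clone 1 and 100 in clone 2, against 10 reads in the control. These are 9.35 and 8.99 CPM in the clones and 0.832 CPM in the control. Both clones stood far above the control and close to each other. The groups did not overlap, which held for 88.5% of all tested genes. The log2 fold change was 3.45 ± 0.35 (SE), or 10.9-fold, and 15 of the 13705 tested genes had a larger positive one. The size of this fold rests on the 10 reads of the control, and the 95% counting interval of the ratio ran from 5.87 to 23.3. The authors' deposited table gives a log2 fold change of 3.45 with a standard error of 0.666 for Frk.

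Src (chromosome 2, 157418444 to 157471862, plus strand), the family's founding member, had 260 and 284 reads in clones 1 and 2 and 213 in the control. This is 23.2 and 25.5 CPM in the clones, against 17.7 CPM in the control, and a log2 fold change of 0.46 ± 0.13 (SE). Fyn (chromosome 10, 39368855 to 39565381, plus strand), the kinase of axonal and synaptic signalling, had 114 and 110 CPM in the clones and 107 CPM in the control. Its log2 fold change was 0.07 ± 0.06 (SE). Yes1 (chromosome 5, 32611171 to 32687057, plus strand), the third of the broadly made kinases, had 1022 and 1116 reads in the clones and 1065 in the control, or 91.03 and 100.3 CPM in the clones and 88.6 CPM in the control. Clone 1 lay inside the 95% counting interval of the control, 83.4 to 94.1 CPM, and clone 2 above it. Its log2 fold change was 0.11 ± 0.07 (SE). Both clones lay above the control for all 3 genes, by little for Fyn and Yes1.

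Lyn and Lck, the kinases known from blood cells, were lower in both clones. Lyn (chromosome 4, 3678115 to 3813122, plus strand), which signals from B cell and Fc receptors, had 111 and 97 reads in clones 1 and 2 and 222 in the control. Its levels were 9.89 and 8.72 CPM in the clones, against 18.5 CPM in the control, and its log2 fold change was -0.99 ± 0.16 (SE). Lck (chromosome 4, 129548344 to 129573641, minus strand), the kinase that starts T cell receptor signalling, had 167 and 165 reads in the clones and 346 in the control. Its levels were 14.9 and 14.8 CPM in the clones, against 28.8 CPM in the control, and its log2 fold change was -0.95 ± 0.12 (SE). Both clones lay below the control for each gene and the groups did not overlap, as for 88.5% of all tested genes. Fgr (chromosome 4, 132974095 to 133001910, plus strand), a kinase of myeloid cells, had 0 and 2 reads in the clones and 1 in the control, all at or under the 3 counts taken as the floor, and no fold is given.

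Csk (chromosome 9, 57626646 to 57653631, minus strand), the kinase that shuts the family off, had 1335 and 1353 reads in clones 1 and 2 and 1230 in the control. This is 119 and 122 CPM in the clones, against 102 CPM in the control, with a log2 fold change of 0.23 ± 0.06 (SE). Csk was thus 1.17-fold higher in the clones, while the log2 fold changes of the other tested members ran from -0.99 (Lyn) to 3.45 (Frk).

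**Figure D1:**
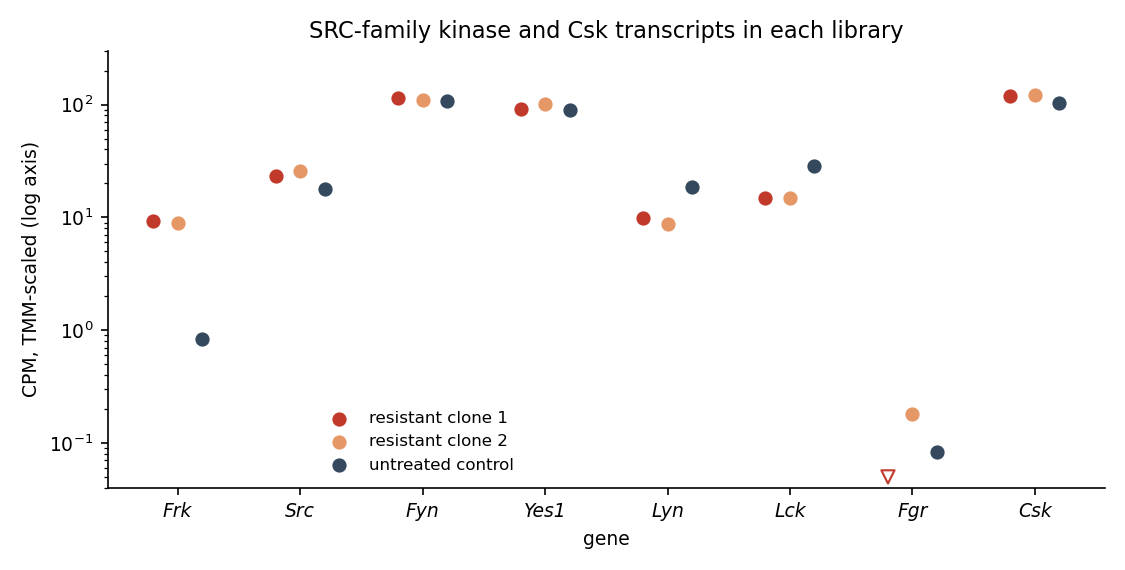
TMM-scaled CPM (log axis) of the 8 genes in resistant clone 1, resistant clone 2 and the untreated control, 1 point for each library, with an open triangle for no read. Frk stood near 9 CPM in both clones and at 0.832 CPM in the control, Lyn and Lck were lower in both clones than in the control, and the points of Fyn and Yes1 lie close together.

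Of the 8 genes, 7 passed the filter on low counts. In edgeR's quasi-likelihood test 3 of these 7 were called higher (Frk, Src, Csk), 2 lower (Lyn, Lck) and 2 were not called (Fyn, Yes1), at an adjusted p of 0.05. Over all 13705 tested genes 24.3% were called higher and 25.8% lower, 50.1% together, and the members were chosen with this contrast known, so nothing is read from their count. The control lay outside the range of the clones for 7 of 7 tested members and for 88.5% of all tested genes. In the authors' deposited table, Frk, Lyn and Lck had an adjusted p under 0.05, and 19.8% of the genes with an adjusted p there did. Src and Csk, called by edgeR, were not called with DESeq2, and all 5 member calls were lost without the filter on low counts. The median log2 fold change of the tested genes was -0.08 on chromosome 10, which carries Frk and Fyn, -0.03 on chromosome 4, which carries Lyn, Lck and Fgr, and 0.01, -0.08 and 0.00 on chromosomes 2, 5 and 9.

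**Figure D2:**
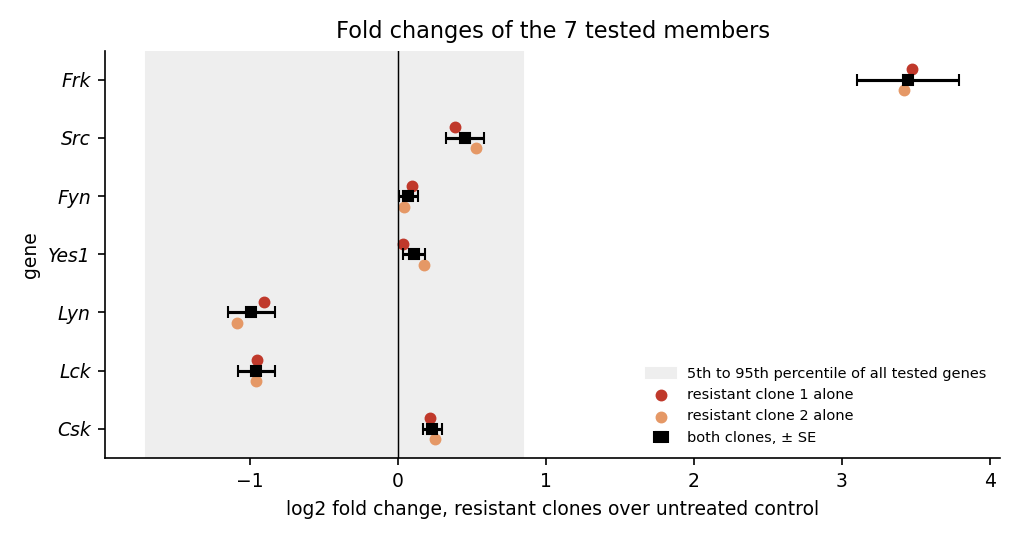
Log2 fold changes of the 7 tested members, clones over control, as black squares with ± SE for both clones and coloured points for each clone alone. The grey band spans the 5th to 95th percentile of all tested genes, -1.70 to 0.85. Frk lies far to the right of the band, and the other 6 lie inside it.

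The clones were also compared with each other, a difference that the choice of members did not use. With 1 library each there is no test, and the intervals below cover counting error only. Frk was 0.961 times as high in clone 2 as in clone 1, with a 95% interval of 0.724 to 1.28. Lck had a ratio of 0.997 (0.799 to 1.24) and Lyn one of 0.882 (0.665 to 1.17). Csk and Fyn, the most deeply counted members, had ratios of 1.02 (0.948 to 1.10) and 0.963 (0.889 to 1.04). Src had a ratio of 1.10 (0.928 to 1.31). Yes1 had a ratio of 1.10 with an interval of 1.01 to 1.20, and for the other 7 genes the interval held a ratio of 1.

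Compared per kilobase of exon, so that genes can be set side by side, Fyn and Yes1 led the family in all 3 libraries. Fyn stood at 26.1 and 25.2 CPM per kb in the clones and 24.4 in the control, and Yes1 at 12.1 and 13.4 in the clones and 11.8 in the control. In the clones Src followed with 5.30 and 5.84 CPM per kb, Lck with 5.08 and 5.06, Lyn with 2.43 and 2.14, and Frk with 1.78 and 1.71. In the control the order after Yes1 was Lck at 9.83, Lyn at 4.54, Src at 4.06 and Frk at 0.158 CPM per kb. Lyn and Src in the control, and Src and Lck in the clones, are neighbours whose order is not secure. With the length of the longest coding transcript in place of all exons, Lck stood above Src in the clones too, at 6.81 and 6.79 against 5.93 and 6.54. Frk was the lowest of the 6 kinases with more than 3 reads in every library.

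The summed level of the 7 kinases was 52.8 and 53.3 CPM per kb in the clones and 54.8 in the control. Frk made up 3.37% and 3.21% of this sum in the clones and 0.289% in the control. The shares of Lck were 9.61% and 9.50% in the clones and 17.9% in the control, and those of Lyn were 4.59% and 4.02% in the clones and 8.27% in the control. Per kilobase, Frk was 1.59 higher in the clones on average, while Lck was lower by 4.76 (a difference of -4.76) and Lyn by 2.25 (a difference of -2.25). The largest fold change of the family therefore belonged to one of its smallest contributors, and the summed transcript level moved little. Transcript levels say nothing about kinase activity, which depends on phosphorylation. Gencode M21 places exons of a gene on the other strand over 8.46% of the exonic bases of Yes1 and 6.09% of those of Lyn, and whether counting used strand is not stated. Frk, Src, Fgr and Csk have no overlapping gene there.

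**Figure D3:**
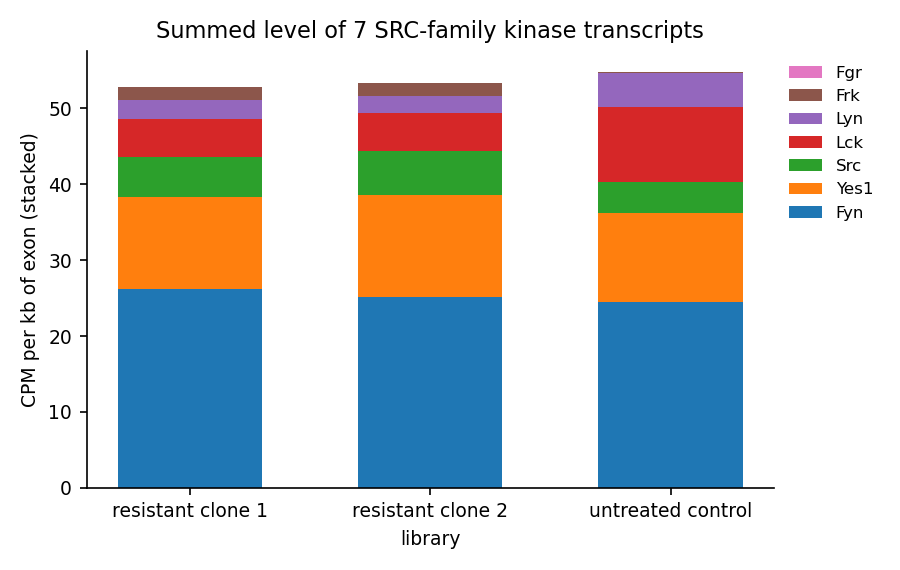
Stacked bars of the level per kilobase of exon (CPM per kb) of the 7 kinases in resistant clone 1, resistant clone 2 and the untreated control. The bars are nearly equally high, with 52.8, 53.3 and 54.8 CPM per kb, the Lck and Lyn segments are narrower in the clones, and the Frk segment can be seen only in the clones.

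Because LYN, LCK and FGR are known from blood cells and FRK from epithelia, markers of those cells were read beside them. Of 16 immune markers 11 were listed and 2 were tested, of which 0 were called. The list summed to 3.12 and 3.24 CPM in the clones and 3.50 CPM in the control, less than Lck alone. Ptprc, the pan-leukocyte phosphatase CD45, had 0 and 2 reads in the clones and 1 in the control, and Cd4, a T cell co-receptor that binds LCK, had 1 and 0 reads in the clones and 3 in the control. Zap70, the kinase that LCK activates in T cells, had 1 read in each library. Of the 2 tested markers, Itgb2, a leukocyte integrin subunit, had 4 and 4 reads in the clones and 12 in the control (log2 fold change -1.45, edgeR adjusted p = 0.0699). Cd68, a macrophage marker, had 10 and 12 reads in the clones and 8 in the control (log2 fold change 0.56, edgeR adjusted p = 0.441). No listed immune marker had more than 12 reads in any library, and the part of such cells in the values of Lck and Lyn was not tested. Of 7 epithelial markers 6 were tested and 0 were called, and the list summed to 13.2 and 18.3 CPM in the clones and 14.9 CPM in the control.

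The other genes of the pathway were taken from 7 lists. Of 98 genes 74 were tested, 22 rose and 22 fell. Their log2 fold changes had a median of 0.07, against 0.002 for all tested genes. The share called, 59.5%, stands beside the 50.1% of all tested genes. The calls are from edgeR's quasi-likelihood test, with p-values adjusted over all tested genes. Without the filter on low counts none of these calls held, and DESeq2 called 11 higher and 11 lower.

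Among the other SRC-related kinases, calls and levels are given for 3. Matk, a CSK homologue, had 12 and 11 reads in the clones and 14 in the control and was not called (edgeR adjusted p = 0.789). Ptk6 and Srms, the closest relatives of Frk, had at most 3 reads in any library and were not tested.

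Among phosphatases, CSK anchors and ubiquitin ligases of the family, 2 of 12 tested genes rose and 3 fell (median log2 fold change 0.14). Cblb, an ubiquitin ligase, fell to 8.54 ± 1.27 CPM in the clones (SD, n = 2), against 14.6 CPM in the control (log2 fold change -0.78, edgeR adjusted p = 0.00182). Ptprj, a receptor phosphatase that acts on SRC kinases, fell to 25.9 ± 2.74 CPM in the clones, against 35.9 CPM in the control (edgeR adjusted p = 0.00241). Ptpn18, a phosphatase of the group that binds CSK, fell to 18 and 10 reads in the clones, against 44 reads in the control (log2 fold change -1.54, edgeR adjusted p = 0.00319). Ptpn1, which encodes PTP1B, rose to 62.4 ± 1.86 CPM in the clones, against 52.3 CPM in the control (edgeR adjusted p = 0.0141). None of these 4 calls held with DESeq2. Pag1, the membrane anchor of CSK, had 1 read in each clone and 2 in the control.

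Of 8 genes for lipid attachment and folding of the kinases, 2 rose and 2 fell (median log2 fold change 0.08). Cdc37, the co-chaperone that brings kinases to HSP90, rose to 172 ± 3.52 CPM in the clones, against 141 CPM in the control (edgeR adjusted p = 0.000854). Hsp90aa1, the inducible HSP90 gene, fell to 717 ± 2.38 CPM in the clones, against 828 CPM in the control (edgeR adjusted p = 0.00176). Unc119b, a carrier of myristoylated proteins, rose to 39.0 ± 0.253 CPM, against 30.7 CPM in the control (edgeR adjusted p = 0.00738). Nmt2, an N-myristoyltransferase gene, fell to 80.8 ± 0.334 CPM, against 94.1 CPM in the control (edgeR adjusted p = 0.0119). Of the 4, DESeq2 called Hsp90aa1.

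Adhesion and cytoskeletal partners of SRC rose in 10 and fell in 5 of 23 tested cases, with a median log2 fold change of 0.09. Bcar1, the docking protein p130Cas and a main SRC substrate, rose to 189 ± 0.782 CPM in the clones, against 122 CPM in the control (log2 fold change 0.63, edgeR adjusted p = 2.87e-07). Arhgap35, the RhoGAP p190 that SRC phosphorylates, rose to 207 ± 0.518 CPM in the clones, against 127 CPM in the control (log2 fold change 0.70, edgeR adjusted p = 7.10e-08). Tln1, the integrin activator talin, rose to 405 ± 12.9 CPM in the clones, against 258 CPM in the control (log2 fold change 0.65, edgeR adjusted p = 7.71e-08). Asap1, an ARF GTPase-activating protein bound by SRC, fell to 135 ± 8.74 CPM in the clones, against 225 CPM in the control (log2 fold change -0.74, edgeR adjusted p = 7.78e-08).

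Neural receptors and substrates of FYN fell in 5 and rose in 2 of 10 tested cases, with a median log2 fold change of -0.23. The 3 steepest falls were in adhesion molecules of axons. L1cam fell to 24.5 ± 5.03 CPM in the clones, against 346 CPM in the control (log2 fold change -3.82, edgeR adjusted p = 1.51e-14). Cntn2, the axonal contactin TAG-1, fell to 1.12 ± 0.056 CPM in the clones, against 14.4 CPM in the control (log2 fold change -3.67, edgeR adjusted p = 1.23e-08). Cntn1, a contactin that associates with FYN, had 2 and 5 reads in the clones and 77 in the control (log2 fold change -4.31, edgeR adjusted p = 5.85e-07). Ncam1, a neural cell adhesion molecule gene, fell to 285 ± 2.58 CPM in the clones, against 366 CPM in the control (log2 fold change -0.36, edgeR adjusted p = 2.40e-05). Fyn itself was at 114 and 110 CPM in the clones and 107 CPM in the control. Dab1, the FYN substrate of the reelin pathway, had 0 and 1 reads in the clones and 0 in the control.

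Receptor tyrosine kinases rose in 4 and fell in 5 of 14 tested cases, with a median log2 fold change of -0.05. Igf1r, the insulin-like growth factor receptor, rose to 215 ± 6.65 CPM in the clones, against 82.6 CPM in the control (log2 fold change 1.38, edgeR adjusted p = 6.10e-11). Fgfr1, a fibroblast growth factor receptor, rose to 322 ± 7.97 CPM in the clones, against 232 CPM in the control (edgeR adjusted p = 2.68e-06). Erbb3, a neuregulin receptor, fell to 24.7 ± 0.287 CPM in the clones, against 46.0 CPM in the control (edgeR adjusted p = 1.39e-06). Kdr, a VEGF receptor, fell to 10.6 ± 0.891 CPM in the clones, against 22.1 CPM in the control (edgeR adjusted p = 1.86e-05).

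Of 5 tested genes reported as partners of FRK, 2 rose and 1 fell (median log2 fold change 0.36). Shb, an adaptor that FRK phosphorylates in insulin-producing cells, rose to 89.6 ± 4.10 CPM in the clones, against 61.0 CPM in the control (log2 fold change 0.55, edgeR adjusted p = 1.40e-05). Irs2, an insulin receptor substrate, rose to 217 ± 1.69 CPM in the clones, against 158 CPM in the control (log2 fold change 0.46, edgeR adjusted p = 5.94e-06). Irs1 was at 11.7 ± 0.962 CPM in the clones and 9.15 CPM in the control and was not called (edgeR adjusted p = 0.117).

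**Figure D4:**
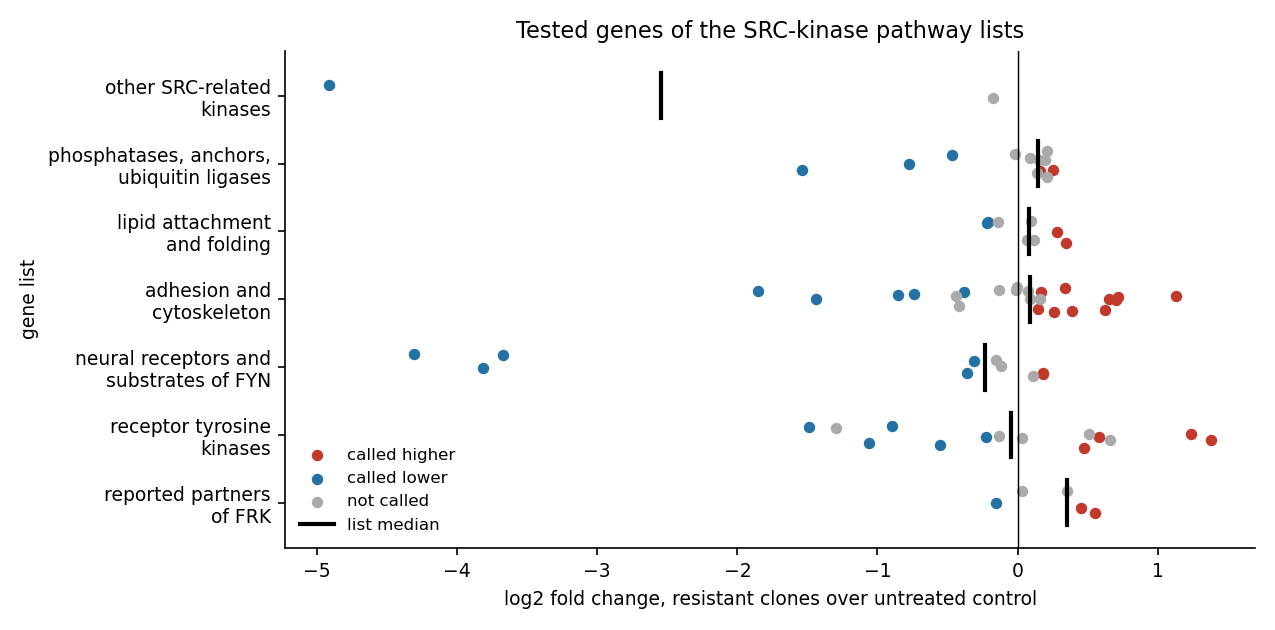
Log2 fold changes, clones over control, of the tested genes of the 7 pathway lists, 1 point for each gene, coloured by edgeR's call, with a bar at each list's median. Points lie on both sides of 0 in every list but that of other SRC-related kinases, and the lowest points of the FYN list are Cntn1, L1cam and Cntn2.

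The region around Frk was read to see whether adjoining genes had like differences. The 3 nearest protein-coding genes upstream are Nt5dc1, Col10a1 and Tspyl4. Nt5dc1, a predicted nucleotidase gene, had 60.5 and 55.8 CPM in the clones and 49.4 CPM in the control, with a log2 fold change at 0.23 (edgeR adjusted p = 0.0293). Tspyl4 had 85.6 and 82.7 CPM in the clones and 74.5 CPM in the control, with a log2 fold change at 0.18 (edgeR adjusted p = 0.0477). Col10a1, a collagen gene of cartilage, had no read in either clone and 2 in the control. Downstream, Amd2 had 5 and 9 reads in the clones and 2 in the control and was not tested, and Hs3st5 was not analysed here. Hdac2, the next gene, which encodes a histone deacetylase, fell to 217 ± 12.3 CPM in the clones, against 277 CPM in the control, with a log2 fold change at -0.35 (edgeR adjusted p = 0.000111). Of the 3 tested neighbours, Nt5dc1 and Tspyl4 were higher in the clones and Hdac2 was lower, all by far less than Frk. Measured from the start of Frk, the midpoints of Nt5dc1 and Tspyl4 lie at -130 and -184 kb and that of Hdac2 at 2505 kb. Untested Amd2, at 1227 kb, had a ratio of clones to control of 3.76, with a 95% counting interval of 0.864 to 34.1. The part of the region in the value of Frk was not tested.

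The genes with a profile most like that of Frk were sought among 12754 genes averaging 1 CPM or more, by the distance between log2 CPM values centred over the 3 libraries. The 5 nearest were Gm13212, Sp100, Dnaja4, Wnk2 and Gm16574. Sp100, a nuclear body protein gene, had 47 and 35 reads in the clones and 4 in the control. Dnaja4, an HSP40 co-chaperone gene, had 24 and 32 reads in the clones and 2 in the control. Wnk2, a kinase gene, had 28 and 41 reads in the clones and 3 in the control. Over 3 libraries such likeness says only that a gene was about as much higher in both clones. All 5 had fewer reads than Frk in each library.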

How the data were processed

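Per the labels' protocols, libraries came from a kit for stranded mRNA. The deposited raw counts are whole reads per gene, made by the authors with STAR 2.5 and the Gencode M16 annotation on GRCm38, per the file headers. The deposited RPM columns are these counts scaled to mapped reads and were not analysed. The authors' deposited DESeq2 table gives a log2 fold change, its standard error, a p-value and an adjusted p-value. STAR 2.5.3, DESeq2 and bcl2fastq are named in the submitters' processing notes. No source used here gives the strand setting.

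Groups came from the labels: 2 resistant clones and 1 untreated control. The members and gene lists were chosen with earlier results of these data known. Analyses used R 4.3.3, edgeR 4.0.16, limma 3.58.1 and DESeq2 1.42.0. Genes passing filterByExpr (13705 of 22976) were tested with the two-sided quasi-likelihood F test of edgeR (TMM factors, legacy option off), with Benjamini-Hochberg adjustment over all tested genes at 0.05. The clones leave 1 residual degree of freedom, moderated across genes. The script was tested on simulated data. An SE is the fold change over the square root of F. Counting intervals are 95% exact ones (Clopper-Pearson) and cover counting error only, since reads are not independent molecules. Named genes were all members, up to 4 tested genes per list with the lowest p (a few of them are not reported here), the 5 genes nearest to Frk in profile and the 3 nearest protein-coding genes on each side of Frk. Others named (marker genes and genes with few reads such as Pag1, Dab1, Ptk6 and Srms) were chosen after their values were seen. Positions and exon lengths came from Gencode M21 on GRCm38. Alternatives were DESeq2, RLE size factors, limma-voom, robust and legacy fits, other filters, a prior count of 5, and each clone left out. The longest coding transcript as length, and no filter together with the legacy fit, were chosen after seeing the data.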

Additional observations from a re-analysis of the deposited data

How the results depend on the processing

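The log2 fold changes of the 7 tested members kept their sign under all 11 alternatives, and 71 of 77 values moved by less than the spread between the clones. Values with a clone left out are those of the other clone alone, so they could not move beyond this spread. The robust fit left every fold unchanged. Frk ranged from 2.92 (prior count of 5) to 3.47, Lyn from -1.08 to -0.90 and Lck from -0.96 to -0.93. With a clone left out, Frk ran from 3.42 to 3.47, Src from 0.39 to 0.53, Fyn from 0.04 to 0.10, Yes1 from 0.04 to 0.18, Lyn from -1.08 to -0.90, Lck from -0.96 to -0.95 and Csk from 0.22 to 0.25, as values with no test. The ratios between the clones moved by less than counting error under both other scalings. Limma-voom, RLE size factors, the filter on mean CPM, and the legacy and robust fits kept every count of all genes, of pathway genes and of members within 1.5 times. DESeq2 called 1578 genes higher and 1459 lower, against 3332 and 3533 with edgeR, 11 pathway genes in each direction, against 22, and 1 member higher (Frk), against 3. Without the filter on low counts edgeR called 0 genes higher and 4 lower, 0 pathway genes and 0 members in either direction. At an unadjusted p under 0.05 that fit had 7086 of 22976 genes, 44 pathway genes and 5 members. With the legacy fit and no filter the counts were 0 throughout. The cause was not tested. No paired analysis was possible because the control is a single library.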
